A study of Mus musculus with 6 samples.

Results

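Egr1, Egr2, Egr3, Nr4a1, Nr4a2, Nr4a3, Ier2, Ier3, Btg2 and Zfp36 are 10 early response genes of 22180 genes measured in adipose tissue of mouse offspring. They were chosen by name, but with earlier results of these data known. The offspring were 32 weeks old, and the groups differed in what the mothers ate: a chromium restriction diet (3 arrays) or a control diet (3 arrays). Chromium is a metal that food contains in trace amounts. The labels state no strain, sex, fat depot or number of litters. Nor do they say that each sample is a separate animal, so the p-values speak only to the spread among these 6 samples, which may be technical. Each gene had 1 probe set with a single symbol, which stood for it, and 0 of the 10 lay among the 64 probe sets whose deposited numbers carry extra digits.

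Early response genes are switched on within minutes of a growth factor, stress or hormone signal, without new protein synthesis, and their mRNAs decay quickly. Serum response factor binds CArG boxes in many of their promoters together with ternary complex factors activated by the MAPK cascade, and CREB binds cyclic AMP response elements in others. The Egr genes encode zinc finger transcription factors, and the Nr4a genes encode orphan nuclear receptors that cyclic AMP and adrenergic signals induce in fat. Ier3 encodes a stress-induced regulator of cell survival, and Ier2 a nuclear protein of less defined role. Btg2 encodes an antiproliferative adaptor of the CCR4-NOT deadenylase. Zfp36 encodes tristetraprolin, which binds AU-rich elements of cytokine mRNAs and speeds their decay.

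The promoters of 4 of these genes are shown because Zfp36 and Ier3 were the 2 genes whose group values did not overlap, and Nr4a1 and Nr4a2 are receptors of 1 family whose differences had opposite signs. Each is the 250 bases before the transcription start in RefSeq (GRCm38.p6), 5′ to 3′, with matches to the searched motifs in capitals. They lie at chr7:28379229-28379478 on the minus strand for Zfp36, chr17:35821463-35821712 on the plus strand for Ier3, chr15:101266596-101266845 on the plus strand for Nr4a1 and chr2:57124004-57124253 on the minus strand for Nr4a2.
Zfp36: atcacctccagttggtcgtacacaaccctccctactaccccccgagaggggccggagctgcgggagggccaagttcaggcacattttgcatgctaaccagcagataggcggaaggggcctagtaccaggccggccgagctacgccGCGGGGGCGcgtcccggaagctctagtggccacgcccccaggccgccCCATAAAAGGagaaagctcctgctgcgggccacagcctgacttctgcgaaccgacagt
Ier3: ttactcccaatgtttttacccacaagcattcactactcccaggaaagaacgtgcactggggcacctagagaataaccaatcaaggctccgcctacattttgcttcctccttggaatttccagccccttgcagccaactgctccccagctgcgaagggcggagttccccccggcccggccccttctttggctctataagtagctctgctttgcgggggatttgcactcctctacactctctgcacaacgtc
Nr4a1: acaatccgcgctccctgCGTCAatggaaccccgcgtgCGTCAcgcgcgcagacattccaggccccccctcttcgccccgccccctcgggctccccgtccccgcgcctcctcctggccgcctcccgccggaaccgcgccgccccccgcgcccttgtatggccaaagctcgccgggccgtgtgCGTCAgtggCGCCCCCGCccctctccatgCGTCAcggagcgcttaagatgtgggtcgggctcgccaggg
Nr4a2: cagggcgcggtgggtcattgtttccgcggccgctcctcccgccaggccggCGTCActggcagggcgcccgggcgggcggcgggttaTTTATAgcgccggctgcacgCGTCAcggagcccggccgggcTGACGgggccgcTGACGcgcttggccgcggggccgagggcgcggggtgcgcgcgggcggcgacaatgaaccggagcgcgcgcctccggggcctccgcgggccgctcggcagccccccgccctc

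Promoter windows were found for 7 of the 10 genes (11 windows, of which 5 belong to Egr2 and partly overlap), and Egr1, Egr3 and Ier2 had none in the table used. The windows run to 50 bases after the start, and both strands were searched. The Zfp36 window held a CArG box (CC, then 6 letters that are A or T, then GG) that begins 58 bases before the start, and the letters GCGGGGGCG, an Egr recognition sequence, 105 bases before it. Egr2 also held a CArG box, so 2 of 7 genes had one; by window it was 5 of 11, of which 4 belong to Egr2 and partly overlap, against 1.63% of all 32851 windows. The core of the cyclic AMP element, TGACG, was found 4 times each in the Nr4a1, Nr4a2 and Nr4a3 windows and in 5 of 7 genes (7 of 11 windows), against 20.8% of all windows. The full element TGACGTCA, which contains this core, was found in Btg2 and in 1.79% of windows. The Egr sequence GCGGGGGCG was also in Nr4a1 (2 of 7 genes and 2 of 11 windows, against 2.91% of all windows), while GCGTGGGCG (0.612% of windows) and the Nr4a monomer sequence AAAGGTCA (1.51% of windows) were in 0 of 7. TATAAA was found in Nr4a2, on the opposite strand, and in 13.6% of all windows. The Ier3 window held 0 of the 7 motifs in these letters. These matches are descriptions of sequence, not measured binding.

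Median log2 values of the arrays lay between 5.44 and 5.57. The labelled tissue had high adipocyte transcripts: the mean of 10 adipocyte markers (one of them, Adipoq, in a row with extra digits) was 11.50 to 11.76 in the chromium restriction arrays and 11.86 to 12.04 in the controls. In the former 10 of 10 markers were lower on average, while 43.2% of all genes were higher. At an unadjusted p under 0.05 in limma 2 of 10 were lower (Adipoq and Pnpla2), against 3.53% of all genes. Adipoq had the largest difference of the 10, -1.22, against a list median of -0.15. It therefore weighs heavily on the gap between the group means, which were not computed without it. Some arrays also held transcripts of other tissues. The mean of 7 hepatocyte markers reached 11.33 in chromium restriction replicate 1 and 10.90 in replicate 3, against 6.55 in replicate 2 and 6.56 to 6.94 in the controls. The mean of 10 intestinal markers came to 6.46 in chromium restriction replicate 2, to 5.53 and 5.48 in replicates 1 and 3 and to 5.15 to 5.33 in the controls. All 10 were higher on average under chromium restriction, and 1 of them, Fabp2, passed the adjusted threshold in limma (7.25 ± 0.09 against 5.27 ± 0.23, SD, n = 3, adjusted p = 0.00358), with all 3 chromium restriction arrays raised. Fabp2 is not in a row with extra digits, but without those rows 0 genes passed, so its call depends on them. Without overlap were 3 of the 10 (Fabp2, Lgals4 and Vil1), against 3.53% of all genes upward. Sis, at 7.09 in chromium restriction replicate 2, was at 4.62 and 4.55 in replicates 1 and 3, against 4.53 to 4.60 in the controls. Muc13, at 7.55 in replicate 2, was at 5.02 and 4.85, against 4.86 to 5.01. The mean of T and B cell markers (9 measured) was 7.76 in chromium restriction replicate 2 and 6.20 to 6.34 in all other arrays. The mean of 7 brown fat markers was 8.32 in control replicate 1 and 6.64 in control replicate 3, against 5.54 to 5.80 in the other 4 arrays. In such whole-tissue RNA, fewer cells of a type and less RNA per cell cannot be told apart.

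Across the 10 early response genes the maternal diets gave small differences in both directions. In the chromium restriction group 6 of 10 genes were higher (against 43.2% of all genes) and 4 lower on average, with a median log2 difference of 0.052, against -0.018 over all genes tested. None passed an adjusted p of 0.05 in limma (0 of 10, smallest adjusted p = 0.746), where 0.0902% of all genes were called higher and 0.104% lower. Those 43 calls over all genes became 0 without the rows with extra digits, and 325 higher and 114 lower without chromium restriction replicate 2; 0 of the 10 passed in either fit. At an unadjusted p under 0.05 in limma, 1 of 10 was higher (Zfp36) and 1 of 10 lower (Ier3), against 2.42% and 3.53% of all genes. The same 2 genes were the ones whose group values did not overlap, which 3.53% of all genes did upward and 6.06% downward. The 95% intervals of all 10 differences lay inside a 2-fold change in either direction, and 5 of them lay inside 1.5-fold. A log2 difference here is chromium restriction minus control, and its SE is limma's.

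**Figure D1:**
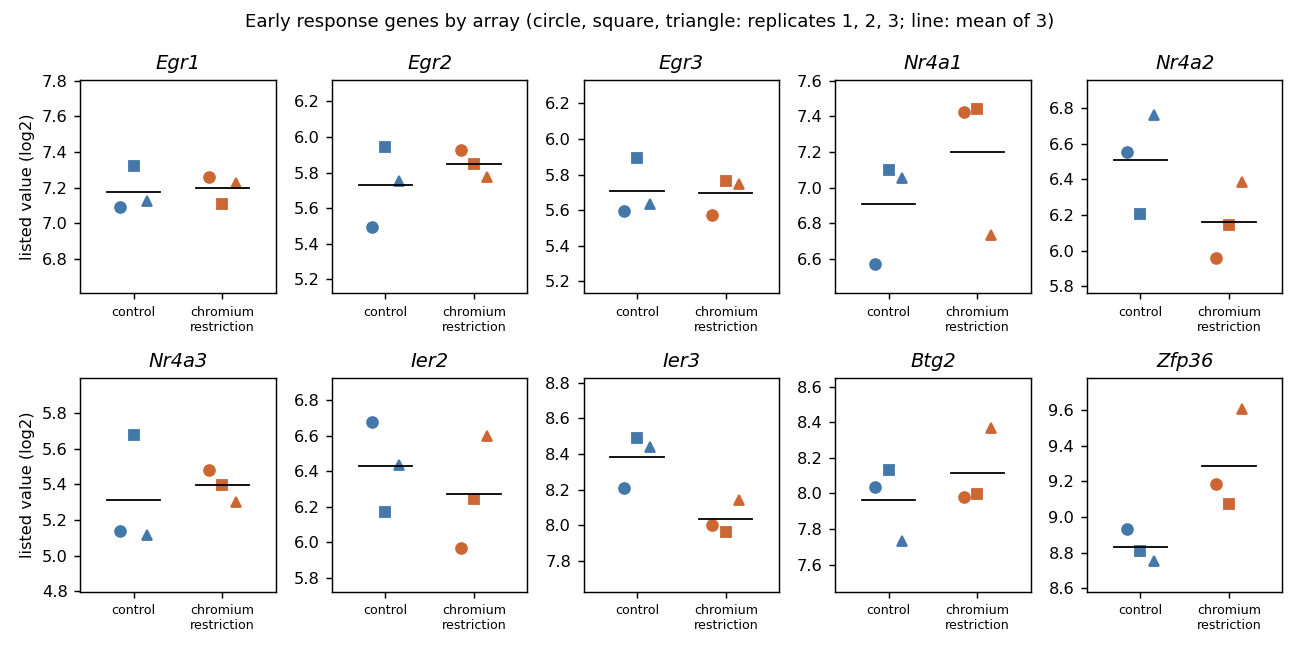
Listed log2 value of each early response gene (vertical axis, 1.2 log2 units in every panel) on the 3 control arrays (blue) and the 3 chromium restriction arrays (orange), with replicates 1, 2 and 3 as circle, square and triangle and a line at the mean of 3. The groups are apart for Ier3 and Zfp36 and overlap for the other 8 genes.

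The Egr transcription factors were nearly level between the diets. Egr1, the best known serum-induced zinc finger factor, was listed at 7.26, 7.11 and 7.23 in chromium restriction replicates 1, 2 and 3 and at 7.09, 7.32 and 7.12 in control replicates 1, 2 and 3. The highest and the lowest value were both controls. Its log2 difference was 0.020 ± 0.092 (SE, n = 3 per group), with a 95% interval from 0.868-fold to 1.19-fold. Egr2, also known as Krox20 and as an early factor of adipocyte differentiation, was at 5.93, 5.85 and 5.77 under chromium restriction and at 5.50, 5.95 and 5.75 in the controls. Here too the controls held both extremes, and the difference was 0.12 ± 0.13 (SE, n = 3), with an interval from 0.878-fold to 1.34-fold. Egr3, a related factor studied in muscle spindles and lymphocytes, was at 5.58, 5.76 and 5.75 against 5.60, 5.89 and 5.64, and its difference was -0.013 ± 0.107 (SE, n = 3). Egr2 and Egr3 exceeded the median of their array on 6 of 6 arrays but its upper quartile on 0. No background level is stated, so their small differences may reflect low signal. Control replicate 2 held the highest value of each of the 3 Egr genes. The sign for Egr1 and Egr3 depended on single arrays: without chromium restriction replicate 1 the differences were -0.011 and 0.048.

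The Nr4a nuclear receptors did not move as a family. Nr4a1 (Nur77) was listed at 7.43 and 7.44 in chromium restriction replicates 1 and 2 but at 6.74 in replicate 3, and at 6.57, 7.10 and 7.05 in the controls. The first 2 of these arrays lay above every control, while replicate 3 lay below control replicates 2 and 3. The difference was 0.29 ± 0.24 (SE, n = 3), and its interval, from 0.823-fold to 1.83-fold, was the widest of the 10. Without chromium restriction replicate 3 it was 0.53 (unadjusted p = 0.0321 and adjusted p = 1 in limma). Nr4a2 (Nurr1) went the other way, at 5.96, 6.14 and 6.39 under chromium restriction and at 6.55, 6.21 and 6.76 in the controls. Chromium restriction replicates 1 and 2 lay below every control, and replicate 3 lay between the controls, so that the groups overlapped. The difference was -0.34 ± 0.17 (SE, n = 3, interval 0.588-fold to 1.06-fold), with an unadjusted p of 0.0933 in limma. Without control replicate 2 it was -0.50 (unadjusted p = 0.0232, adjusted p = 0.912 in limma). Like Egr2 and Egr3, Nr4a2 exceeded the median of its array on 6 of 6 arrays but its upper quartile on 0, so low signal may bear on it too. Nr4a3 (NOR1) was at 5.48, 5.40 and 5.30 against 5.14, 5.68 and 5.12, a difference of 0.083 ± 0.164 (SE, n = 3). It exceeded the median of its array on 1 of 6 arrays, control replicate 2, and no background level of these arrays is stated. Without control replicate 2 its difference was 0.27 (unadjusted p = 0.0298, adjusted p = 0.912 in limma).

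Zfp36 and Ier3 differed most clearly, in opposite directions. Zfp36 was listed at 9.18, 9.07 and 9.61 in chromium restriction replicates 1, 2 and 3 and at 8.93, 8.81 and 8.75 in the controls. Every chromium restriction array was above every control, and replicate 3 stood highest. The difference was 0.46 ± 0.15 (SE, n = 3), a 1.37-fold higher level with an interval from 1.07-fold to 1.77-fold (unadjusted p = 0.0212, adjusted p = 0.772 in limma). Without chromium restriction replicate 3 it was 0.30 (unadjusted p = 0.0275, adjusted p = 1 in limma). Zfp36 was 0.35, 0.24 and 0.78 above the control mean in chromium restriction replicates 1, 2 and 3, of which replicates 1 and 3 had raised hepatocyte markers and replicate 2 raised intestinal and T and B cell markers. With the hepatocyte marker mean as a covariate the difference was 0.28, with an unadjusted p of 0.188 in limma, and in that fit the diet term rests mostly on replicate 2. Brown fat markers were lower on average in the chromium restriction group (7 of 7 genes, 4 of them without overlap, against 6.06% of all genes). That average rests mostly on control replicates 1 and 3. The brown fat mean of control replicate 2, 5.75, lay within the chromium restriction range of 5.54 to 5.80. The 4 genes without overlap were Cox8b, Cidea, Cox7a1 and Dio2. In control replicate 2 they too exceeded every chromium restriction array, with Cox8b at 6.39 against 5.45 to 5.91. Ucp1, Ppargc1a and Elovl3 did not. The part of these other tissues in the Zfp36 values was not tested beyond the covariate. Over the 16 alternative settings its unadjusted p was under 0.05 in 12, and its adjusted p in limma lay between 0.201, without chromium restriction replicate 2, and 1.

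Ier3 was listed at 8.00, 7.96 and 8.14 under chromium restriction and at 8.21, 8.49 and 8.44 in the controls. Every chromium restriction array lay below every control. The difference was -0.35 ± 0.10 (SE, n = 3), 1.27-fold lower with an interval of 0.663-fold to 0.933-fold (unadjusted p = 0.0136, adjusted p = 0.746 in limma). The lowest value was that of replicate 2, whose mean of hepatocyte markers lay near the controls (1 of 7, Apoa1, lay above them) and whose intestinal markers were raised. With the hepatocyte covariate the difference was -0.42 (unadjusted p = 0.0299, adjusted p = 1 in limma). The control nearest to the chromium restriction group was replicate 1, the array with the highest brown fat markers, and without it the difference was -0.43. Under each of the 16 alternative settings the unadjusted p of Ier3 stayed below 0.05, from 0.00494 to 0.0467, and the adjusted p lay between 0.405 and 1. The part of intestinal and brown fat transcripts in these values was not tested.

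Ier2 and Btg2 overlapped between the groups. Ier2 was at 5.97, 6.25 and 6.60 under chromium restriction and at 6.68, 6.17 and 6.43 in the controls. Its difference was -0.15 ± 0.20 (SE, n = 3, interval 0.646-fold to 1.25-fold). Ier2 exceeded the median of its array on 6 of 6 arrays but its upper quartile on 0, and no background level is stated. Btg2 was at 7.98, 8.00 and 8.37 against 8.04, 8.13 and 7.73. One array, chromium restriction replicate 3, was above all controls, and the difference was 0.15 ± 0.15 (SE, n = 3, interval 0.859-fold to 1.43-fold).

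**Figure D2:**
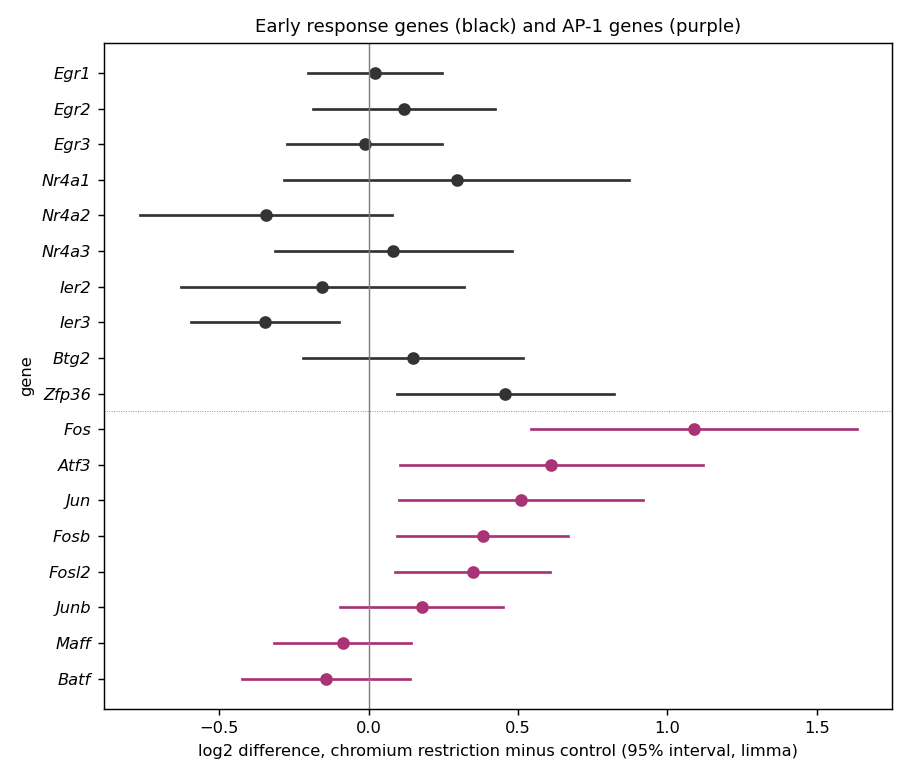
Log2 difference between chromium restriction and control (point) with its 95% interval from limma (line) for the 10 early response genes (black) and for 8 AP-1 genes (purple; Jund, in a row with extra digits, is not drawn). The intervals of 8 of 10 early response genes include 0, those of Ier3 and Zfp36 do not, and Fos lies highest at 1.09.

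Summed over the 10 genes, the arrays hardly separated by diet. Their mean log2 difference from the control mean came to -0.018, 0.0028 and 0.094 on chromium restriction arrays 1, 2 and 3 and to -0.065, 0.080 and -0.014 in control replicates 1, 2 and 3. Control replicate 2 held the highest value of 5 of the 10 genes (Egr1, Egr2, Egr3, Nr4a3 and Ier3), and chromium restriction replicate 3 that of Btg2 and Zfp36. Chromium restriction replicate 1, control replicate 1 and control replicate 3 each held the lowest value of 3 genes.

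Across the 6 arrays the genes did not vary as a single block. Of the 45 pairs, 26 had a positive Pearson r and the median r was 0.072, over 6 arrays that every pair shares. Egr1 and Egr2 each followed Nr4a3 (r = 0.82 for both), and Egr2 followed Nr4a1 (r = 0.79). Nr4a2 followed Ier2 (r = 0.78), and Btg2 followed Zfp36 (r = 0.75). Nr4a2 and Ier2 ran against the Egr2, Nr4a1 and Nr4a3 values, with r = -0.90 between Nr4a1 and Ier2, -0.85 between Egr2 and Ier2 and -0.80 between Nr4a2 and Nr4a3. After each group's own mean was taken away the values were -0.89, -0.84 and -0.88, so these values changed little. That of Nr4a1 and Zfp36 went from -0.13 to -0.92. The pairs named here are mostly extremes of the 45, and no share over other gene pairs was computed. The mean profile of the 10 genes was most like that of Ano3, Usp27x, 6820408C15Rik, Dclk2 and Fermt1 (r = 0.973 to 0.982 over 6 arrays), the 5 highest of all other genes, which differed by 0.015 to 0.078 between the diets. Picked as the highest of so many genes over 6 arrays, these r values show no link by themselves. The 10 genes themselves followed their mean unevenly, from r = -0.22 (Nr4a2) to 0.80 (Egr3).

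**Figure D3:**
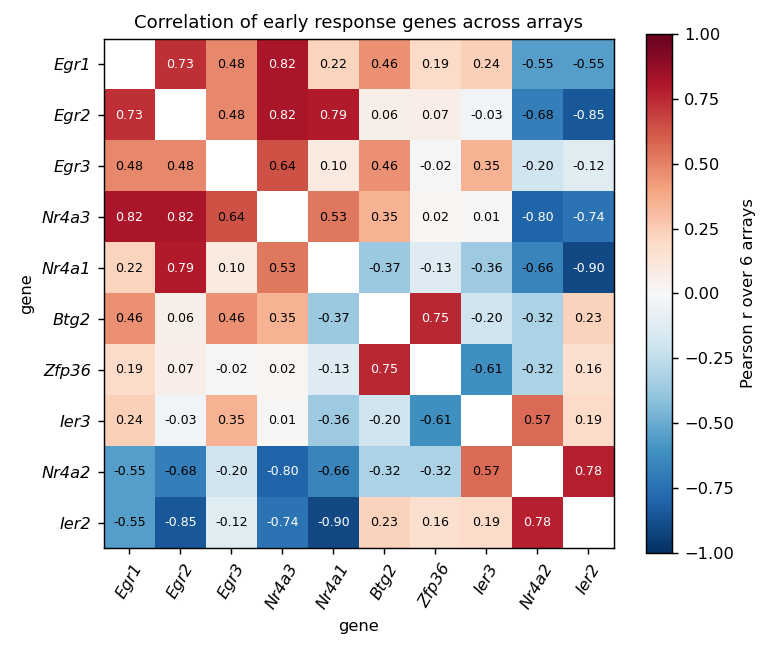
Pearson r over 6 arrays for each pair of the 10 early response genes (both axes: genes; colour: r from -1 to 1, red positive, blue negative), as a description without a test. Egr1, Egr2 and Nr4a3 form a positive block, and Nr4a2 with Ier2 is opposed to it, down to -0.85 between Ier2 and Egr2; the lowest r of all pairs is -0.90, between Ier2 and Nr4a1.

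Among other early response genes, the AP-1 genes were mostly higher under chromium restriction. The list of AP-1 genes held Fos and Jun genes besides Atf3, Batf and Maff. Of 9 measured, 6 were higher at an unadjusted p under 0.05 in limma (66.7%, against 2.42% of all genes) and 0 lower. The median log2 difference was 0.38, and 1 gene passed the adjusted threshold in limma (Jund, which lies in a row with extra digits). Fos, with 8.27, 8.45 and 7.68 under chromium restriction and 6.78, 7.12 and 7.23 in the controls, differed by 1.09 ± 0.23 (SE, n = 3, adjusted p = 0.522 in limma). Egr1, like Fos a classic serum response gene, differed by 0.020 ± 0.092 (SE, n = 3), and the contrast between the 2 genes was not tested. Among 39 further early response genes 11 were higher and 2 lower at an unadjusted p under 0.05 in limma, against 2.42% and 3.53% of all genes. None of them (0 of 39) passed the adjusted threshold. The 4 with the smallest p were Dusp8 (0.57 ± 0.09), Spry4 (0.99 ± 0.24), Dusp1 (0.56 ± 0.14) and Errfi1 (1.04 ± 0.27, log2 difference, SE, n = 3), which encode feedback inhibitors of MAPK or receptor tyrosine kinase signalling.

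Closer relatives of the 10 genes gave 0 calls at an adjusted p of 0.05 in limma. In the list of Egr4, Btg and Tob proteins and Zfp36-like proteins, 8 were measured, with a median log2 difference of -0.10, 0 higher and 2 lower at an unadjusted p under 0.05 in limma (3.53% of all genes were lower at that threshold). These 2 were Tob1 and Tob2, antiproliferative proteins related to Btg2. Tob1 was at 8.85, 9.27 and 9.20 under chromium restriction and at 9.41, 9.39 and 9.42 in the controls, without overlap. Its difference was -0.30 ± 0.12 (SE, n = 3), and that of Tob2, whose groups overlapped, was -0.38 ± 0.15 (SE, n = 3), both with an adjusted p of 0.817 in limma. Egr4, the remaining Egr gene, differed by -0.22 ± 0.13 (SE, n = 3). Zfp36l1 and Zfp36l2, which bind AU-rich elements as Zfp36 does, differed by 0.21 ± 0.18 and 0.12 ± 0.12 (SE, n = 3).

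Of 13 measured partners and corepressors 0 had an unadjusted p under 0.05 in limma and 0 an adjusted one. The Egr corepressor Nab2, itself an Egr target, came nearest at 0.22 ± 0.10 (SE, n = 3, unadjusted p = 0.0663), and Nab1 differed by 0.022 ± 0.112. Rxra and Rxrg, nuclear receptors that can pair with Nr4a1 and Nr4a2, differed by 0.17 ± 0.21 and 0.030 ± 0.171 (SE, n = 3). Among 21 measured upstream factors, 1 was higher at an unadjusted p under 0.05 in limma and 0 lower, against 2.42% and 3.53% of all genes. It was Mrtfa, an actin-controlled partner of serum response factor, at 0.25 ± 0.09 (SE, n = 3, adjusted p = 0.817). Srf itself differed by 0.14 ± 0.15 and Creb1 by 0.084 ± 0.193 (SE, n = 3).

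Messenger RNAs that tristetraprolin is known to bind had a median difference near 0 but included 1 call. Of 13 on the list 9 were higher and 4 lower, with a median of 0.063. At an unadjusted p under 0.05 in limma 0 were higher and 2 lower, against 2.42% and 3.53% of all genes. The 2 were Ier3, whose own mRNA carries an AU-rich element, and Il6, listed at 3.51 ± 0.03 against 4.50 ± 0.01 (SD, n = 3) in a row with extra digits. Il6 had the largest difference on the list, -0.99 ± 0.06 (SE, n = 3), and was its 1 member past the adjusted threshold (adjusted p = 0.00358 in limma). Both Il6 means lay below the lower quartile of every array (4.75 to 4.82), and the smallest value of all probe sets was 3.49. Tnf, Csf2 and Il10 lay below the median of every array (5.44 to 5.57). No background level is stated, so differences at such low levels may not reflect the mRNA. The cytokine gene Il1b differed by 0.33 ± 0.14 and the chemokine gene Ccl2 by 0.30 ± 0.13 (SE, n = 3), with unadjusted p of 0.0572 and 0.0605 in limma. The mean level of 10 macrophage markers, cells that make such cytokines, came to 9.17, 8.72 and 8.54 on chromium restriction arrays 1, 2 and 3 and to 8.33 to 8.82 in the controls. At an unadjusted p under 0.05 in limma 1 of the 10 markers was higher, Mpeg1 at 0.71 ± 0.10 (SE, n = 3), and 1 lower, Cd163 at -0.46 ± 0.14 (SE, n = 3). The part of macrophages in the cytokine and Zfp36 values was not tested.

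**Figure D4:**
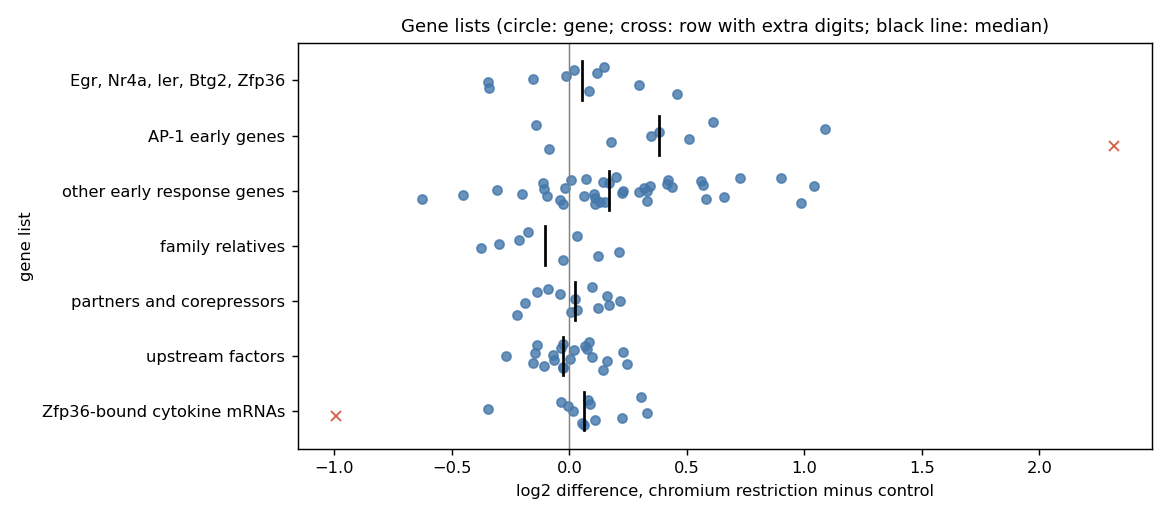
Log2 difference between chromium restriction and control for each measured gene (point) of 7 gene lists (vertical axis), with crosses for genes in rows with extra digits and a black line at each list's median. The 10 genes of the top row centre on 0.052 and the AP-1 genes on 0.38.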

How the data were processed

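The authors deposited 1 table of 33793 probe sets on 6 arrays (biotin-labelled total RNA, per the labels). The deposited values were taken as normalized log2 from their range of 3.49 to 14.86; no source used here states the log base, the summarisation or the normalization by the authors. All 6 value columns were used, with no further normalization. In the platform annotation 23521 probe sets had 1 symbol, 1814 had several and 8458 had none; the brightest single-symbol probe set stood for each of 22180 genes, of which 21994 matched RefSeq (GRCm38.p6) by Entrez identifier. Rows with extra digits are 64 probe sets with values not written as the shortest single-precision decimal. The test was limma 3.58.1 in R 4.3.3 (lmFit, eBayes), two-sided, Benjamini-Hochberg over all genes, with 95% intervals; the script was tested on simulated data. Precision is limited by having 3 arrays in a group. Alternatives covered normalization, dim genes, variance model, array weights, probe choice, replicate block, rows with extra digits, hepatocyte markers and left-out arrays.

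The genes, lists and tests were chosen with earlier results of these data known. Text names the 10 genes, up to 4 genes of each list by unadjusted p, the 5 most alike in profile, and marker genes; other genes named (Srf, Creb1, Nab1, Rxra, Rxrg, Zfp36l2) were added after their values were seen. In 5 lists some symbols matched no tested gene and were not analysed here; of these Mkl1 and Mkl2 are older symbols of Mrtfa and Mrtfb, which were tested. Promoter motifs were searched in RefSeq windows on both strands.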

Additional observations from a re-analysis of the deposited data

How the results depend on the processing

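No early response gene passed an adjusted p of 0.05 under any of the 16 alternatives in limma (0 of 10, or 0 of 7 with the filter on dim genes, which removed Egr2, Egr3 and Nr4a3), and 5 of 10 kept their sign in all of them: Nr4a1, Nr4a2, Ier3, Btg2 and Zfp36. The filter, variance model, probe choice, replicate block and rows with extra digits could not change a sign, since they left these differences as reported. Probe choice and rows with extra digits also left the unadjusted p nearly unchanged. For Egr1 the value was -0.066 with the hepatocyte covariate and -0.072 without chromium restriction replicates 1 and 3 together, and leaving out 1 array at a time gave -0.024 to 0.093. For Egr3 it was 0.020 with array weights, 0.057 with the covariate and 0.054 without both arrays, and -0.068 to 0.078 with 1 array left out. Ier2 turned to 0.0012 with array weights. With 1 array left out Egr2 ran from -0.00056 to 0.22 and Nr4a3 from -0.014 to 0.27. The count of genes at an unadjusted p under 0.05, 2 in the reported fit, was 1 with the covariate and 1 without both arrays (Ier3 each time), and 1 to 3 with 1 array left out. The count without overlap, 2 as reported, was 4 without both arrays, where 1 array is set against 3, and 2 to 5 with 1 array left out. The median of the 10 differences ran from -0.014 to 0.16 with 1 array left out. The mean of the genes on chromium restriction replicate 1 was -0.094 with median centring, and on control replicate 2 it was 0.0049 with the filter. The cause was not tested in these cases, other than the smaller numbers of arrays or genes. The array means and the overlap were not computed for the covariate and the replicate block, which give no adjusted values for single arrays.

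Same-numbered arrays of the 2 groups deviated together with r of -0.12, -0.09 and 0.08 over genes for replicates 1, 2 and 3. Only control replicate 3 correlated best with its own number (0.08, against 0.07 with chromium restriction replicate 2). The highest r, 0.28, was between chromium restriction replicate 1 and control replicate 2. With the replicate block 0 of 10 early response genes passed (smallest adjusted p = 0.822), and over all genes 0 passed where 43 did without it. The differences themselves stay as reported, as for Zfp36 at 0.46 and Ier3 at -0.35.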

Other observations

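Heat shock genes, which encode protein chaperones that stress and tissue handling induce, were set beside the early response genes. Of 10 measured, 7 were higher under chromium restriction (against 43.2% of all genes) and 3 lower, with a median log2 difference of 0.16. At an unadjusted p under 0.05 in limma 1 was higher, against 2.42% of all genes. It was Hspa8, the constitutive Hsc70 chaperone, at 0.27 ± 0.09 (SE, n = 3, adjusted p = 0.804). The stress-inducible Hspa1a differed by 0.28 ± 0.21 and Hsph1 by 0.54 ± 0.25 (SE, n = 3). The mean over the list stood at 8.12, 8.43 and 8.21 on chromium restriction arrays 1, 2 and 3 and 7.92, 8.12 and 8.25 in the controls, so the groups overlapped.

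Mesothelial, endothelial and muscle markers had 0 members at an unadjusted p under 0.05 in limma, and 0 at an adjusted one, of 6, 8 and 8 measured. The mesothelial mean stood at 6.61 in control replicate 1, where the lowest Egr1, Egr2 and Nr4a1 were also found, and at 7.55 to 8.16 elsewhere. The same array held the highest Ier2 and the highest brown fat mean (8.32). Whether either marker list bears on those genes was not tested.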
